A study of Mus musculus with 2 samples.

Results

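Slc4a1, which encodes band 3, its relative Slc4a2 and 7 carbonic anhydrase genes (Car1, Car2, Car3, Car4, Car5b, Car8 and Car13) were followed in total RNA of mouse erythroid progenitor cells. These 9 genes were chosen by name, with earlier results of these data known, and matched by gene identifier. They are the red cell anion exchanger, a related exchanger of other tissues and 7 of the 16 carbonic anhydrase genes measured. All 9 were found among the 42462 genes that could be given a name, of which 21461 are nuclear protein-coding genes. The series holds 1 group, labelled CFU-Ery, of 2 libraries numbered biological replicates 1 and 2, with no treatment, mutation or control. Male C57BL/6J mice, adults of 5 to 6 weeks, gave the primary cells, by an isolation of bone marrow progenitors and a protocol for small pools of cells, according to the labels. From 1 ng of RNA, mixed with spike-in RNA, 1 library was made per replicate. Both libraries share a donor record and have separate biosamples, so whether they come from separate animals is not stated. The spread between them may therefore be technical. No test between conditions was possible, and levels are given for each library with mean ± SD (n = 2).

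Red cells carry carbon dioxide from tissue to lung mostly as bicarbonate. Carbonic anhydrases, zinc enzymes, speed the reaction of carbon dioxide with water to bicarbonate and a proton. Band 3 then exchanges the bicarbonate for chloride across the red cell membrane. The cytoplasmic part of band 3 also binds ankyrin and protein 4.2, and so holds the membrane to the spectrin skeleton. Car2 and Car1 encode the cytosolic enzymes known from red cells. Car3 and Car13 encode other cytosolic enzymes, Car3 being abundant in skeletal muscle and fat. Car4 encodes an enzyme anchored outside the cell membrane, and Car5b a mitochondrial one. Car8 encodes a related protein of cerebellar Purkinje cells that lacks the enzyme activity.

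The catalytic zinc of an active carbonic anhydrase is held by 3 histidines. The coding sequence around them is shown for 3 cytosolic members of differing level: the most and the next most abundant carbonic anhydrase transcripts (Car2 and Car1), and a relative of far lower level (Car13). Each stretch has 108 coding bases, is read 5′ to 3′ along the transcript, and crosses 1 exon junction. Capitals mark the codons at the 3 zinc-binding positions. Transcript sequences are those of GENCODE M21 on GRCm38.
Car2: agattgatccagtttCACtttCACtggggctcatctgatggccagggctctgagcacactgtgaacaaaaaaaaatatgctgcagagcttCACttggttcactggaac
Car1: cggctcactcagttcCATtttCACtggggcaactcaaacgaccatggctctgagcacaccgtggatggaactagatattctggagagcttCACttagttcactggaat
Car13: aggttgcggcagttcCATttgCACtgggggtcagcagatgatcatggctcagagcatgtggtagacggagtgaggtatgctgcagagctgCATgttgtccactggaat

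The Car2 stretch lies at chr3:14895054-14895555 on the + strand, in exons 3 and 4 of Car2-201. The Car1 stretch lies at chr3:14770883-14776304 on the − strand, in exons 4 and 5 of Car1-203. The Car13 stretch lies at chr3:14650691-14654904 on the + strand, in exons 3 and 4 of Car13-201. Identity to Car2 over the stretch was 74.1% for Car1 and 69.4% for Car13. Among members not printed, it was 79.6% for Car3, 74.1% for Car5b and 53.7% for Car4. The printed stretches hold codons for all 3 histidines. Over whole transcripts, Car2 and Car13 each had 6 sequences of 25 bases, which may overlap, that also occur in another member. Car1 and Car3 had none.

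The deposited tables give estimated (expected) counts and TPM, a transcript level per unit of length that sums to 1000000 over a table. Expected counts summed to 143491647 in replicate 1 and 110634458 in replicate 2, of which mitochondrial genes took 90.3% and 88.3%. Nuclear protein-coding genes held 4717790 and 4093202 counts. Because TPM is shared out over all RNA, a second scale is also given, called rescaled TPM, on which nuclear protein-coding genes alone sum to 1000000. On it 1 deposited TPM is worth 43.1 in replicate 1 and 37.0 in replicate 2. The 7 erythroid markers, among them Gata1, Klf1, Epor, Tfrc, Alas2 and Hemgn, were all at 1 TPM or more in both libraries and summed to 229 and 260.06 TPM. Granulocyte markers, 7 of 7 at that level, summed to 500.01 and 681 TPM. Macrophage markers (5 of 7) summed to 11.98 and 15.4 TPM, and markers of eosinophils, basophils and mast cells (4 of 7) to 11.8 and 12.6 TPM. Markers of stem cells, megakaryocytes and endothelium or stroma had 0 of 7 at 1 TPM each in both libraries, with sums of at most 3.60 TPM. Over all nuclear protein-coding genes 12.6% were at that level in both libraries. At 1 rescaled TPM in both libraries were 6 of 7 stem cell, 6 of 7 megakaryocyte and 4 of 7 endothelial or stromal markers. All 7 markers of each earlier list reached it, against 44.6% of nuclear protein-coding genes. What part RNA of these other cell types has in the levels below was not tested. In these bulk libraries, fewer cells of a type and less RNA per cell cannot be told apart.

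Slc4a1, Car2 and Car1 were abundant transcripts. Slc4a2 and Car13 were far lower, but each had at least 35 counts in both libraries. Car3, with 15 and 3 counts, was close to the lower limit of detection, and Car4, Car5b and Car8 were listed at 0 TPM. At 1 TPM or more in both libraries were 3 of the 9 members, against 12.6% of all nuclear protein-coding genes. On the rescaled scale 5 of 9 members reached 1 in both libraries (Slc4a2 and Car13 in addition), against 44.6% of nuclear protein-coding genes. The median level of the 9 members was 0.12 TPM in replicate 1 and 0.24 TPM in replicate 2, against 0.01 and 0.02 TPM over all nuclear protein-coding genes. No count was seen in either library for 2 of the 9 members, and for 42.1% of nuclear protein-coding genes.

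**Figure D1:**
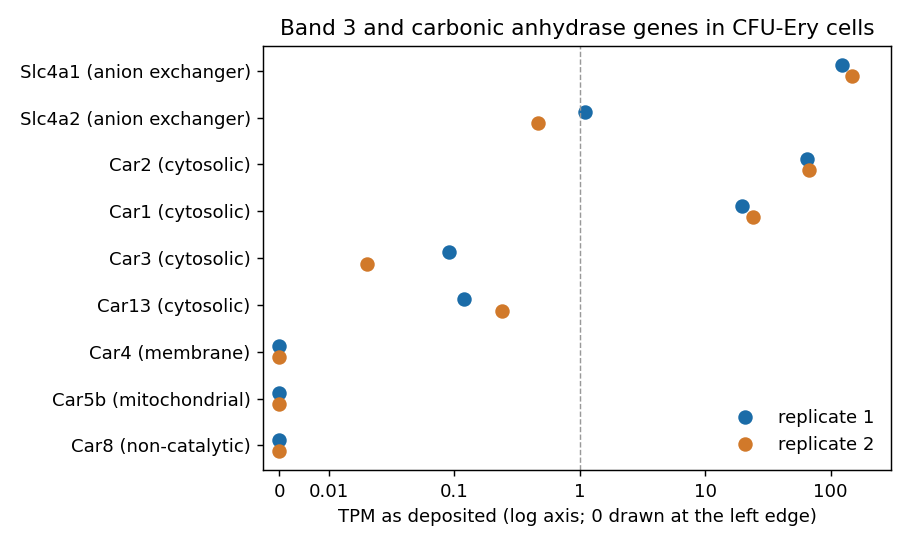
Level of each of the 9 genes in TPM as deposited (log axis, with 0 drawn at the edge), 1 point per library. Slc4a1, Car2 and Car1 lie between 19.6 and 149 TPM in both libraries, and every other gene lies at or below 1.09 TPM.

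Slc4a1, band 3 itself (ENSMUSG00000006574.11, chr11:102348824-102366203, − strand), had 72125 expected counts in replicate 1 and 67646 in replicate 2. That is 123.88 and 148.57 TPM (136 ± 17.5), or 5345 and 5498 rescaled TPM (5421 ± 108). Its counts were 1.53% and 1.65% of those on nuclear protein-coding genes. Both libraries placed it 9th among the 21461 nuclear protein-coding genes. By mean TPM the genes just above it were Hist1h4d, a histone H4 gene, at 182 ± 48.6 TPM and Cd24a, a surface protein of many immature blood cells, at 159.8 ± 10.1 TPM. Just below it were Hist1h1e, a linker histone, at 113 ± 26.8 TPM and Eef1a1, a translation elongation factor, at 112 ± 5.44 TPM.

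Car2, the fast cytosolic enzyme (ENSMUSG00000027562.8, chr3:14886273-14900770, + strand), had 13807 and 11203 expected counts. Its level was 64.60 TPM in replicate 1 and 67.01 TPM in replicate 2 (65.8 ± 1.70), or 2787 and 2479.6 rescaled TPM (2633 ± 217). It ranked 22nd and 24th among nuclear protein-coding genes. Next to it by mean TPM were Tuba1b, an alpha-tubulin, at 67.5 ± 2.73 TPM and Slc25a37, mitoferrin, the iron importer of erythroid mitochondria, at 64.9 ± 0.339 TPM. Car1, the slower cytosolic enzyme that is abundant in mature red cells (ENSMUSG00000027556.11, chr3:14766216-14808368, − strand), had 2728 and 2628 expected counts. It stood at 19.63 and 24.11 TPM (21.9 ± 3.17), or 847 and 892 rescaled TPM (869.6 ± 32.0). Its ranks were 123 and 113. Its nearest genes by mean TPM were Birc5, survivin, at 22.0 ± 0.438 TPM and Ppp1r15a, a stress-induced phosphatase subunit, at 21.7 ± 3.27 TPM.

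The ratio of Slc4a1 to Car2 on TPM was 1.92 in replicate 1 (exact 95% interval 1.88 to 1.95) and 2.22 in replicate 2 (2.17 to 2.26). These intervals cover counting error only, and they do not overlap between the libraries, so the spread between libraries was larger than counting error. Car2 stood 3.29-fold above Car1 in replicate 1 (3.16 to 3.43) and 2.78-fold above it in replicate 2 (2.66 to 2.90). On the log2 scale the ratio of Slc4a1 to Car2 was 1.04 ± 0.15 and that of Car2 to Car1 was 1.60 ± 0.17. Both differences were several times the spread between the libraries, and both kept their direction in each library. Of the summed TPM of all 16 carbonic anhydrase genes measured, 84.49 and 91.52 TPM, Car2 held 76.5% in replicate 1 and 73.2% in replicate 2 (74.8 ± 2.29). Car1 held 23.2% and 26.3% (24.8 ± 2.20), which left under 1% for the other 14 genes together. Within the SLC4 family of 10 genes Slc4a1 held 98.99% and 99.6% of the summed TPM (99.3 ± 0.432).

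Slc4a2, anion exchanger 2 of most other tissues and of acid-secreting cells such as osteoclasts (ENSMUSG00000028962.10, chr5:24423837-24440950, + strand), was listed with 94.8 expected counts in replicate 1 and 36.8 in replicate 2. Their 95% Poisson intervals were 76.7 to 116 and 25.9 to 50.8 counts. The level was 1.09 and 0.46 TPM (0.775 ± 0.445), so Slc4a1 was 113-fold higher in replicate 1 (92.5 to 139.9) and 323-fold higher in replicate 2 (233 to 456). These intervals hold for the deposited length of Slc4a2. With the length of the longest coding transcript of each gene, which for Slc4a2 itself had 0 counts, the ratios were 712 and 1720.5. The 2 libraries therefore gave values for Slc4a2 that differ by more than 2-fold. Slc4a2 is also the only member whose expected counts were not whole numbers. It overlaps Fastk, a gene of the opposite strand, over 2511 bases, and the counts of both genes added up to 288 and 120, whole within 0.01. Fastk had 193 and 83.2 counts. The use of strand in the counting is not given in the sources used here, so reads of Slc4a2 and Fastk in the overlap cannot be told apart. Of the osteoclast markers Acp5 had 2.17 and 3.30 TPM, and Mmp9, which is also known from granulocytes, 0.98 and 1.24 TPM. Calcr, Dcstamp, Ocstamp and Oscar had 0 counts, Ctsk had 15 and 0 counts, and the 7 markers summed to 3.23 and 4.54 TPM.

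Car13, a cytosolic enzyme (ENSMUSG00000027555.8, chr3:14641727-14663002, + strand), had 35 counts (Poisson interval 24.4 to 48.7) in replicate 1 and 54 counts (40.6 to 70.5) in replicate 2. The level was 0.12 and 0.24 TPM (0.18 ± 0.0849), or 5.18 and 8.88 rescaled TPM. Car1 was 160.4-fold above Car13 in replicate 1 (115 to 231) and 99.7-fold above it in replicate 2 (76.2 to 133). Car3, the muscle and fat enzyme (ENSMUSG00000027559.5, chr3:14863512-14872523, + strand), had 15 counts (8.40 to 24.7) and 3 counts (0.619 to 8.77). Its level was 0.09 and 0.02 TPM (0.055 ± 0.0495). The markers of skeletal muscle and fat had 0 counts in both libraries for 6 of 7 genes, against 42.1% of nuclear protein-coding genes. The other marker, Adipoq, had 44 counts in replicate 1 and 0 in replicate 2.

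Car4 (ENSMUSG00000000805.14, chr11:84957786-84966044, + strand) and Car8 (ENSMUSG00000041261.9, chr4:8143362-8239041, − strand) had 0 counts in both libraries. Car5b (ENSMUSG00000031373.4, chrX:163976822-164027997, − strand) had 1 count in replicate 1 and 0 in replicate 2, and was listed at 0 TPM in both. A count of 0 allows up to 3 counts per library, which for Car4 is 0.0418 TPM in replicate 1 and 0.0538 TPM in replicate 2, and for Car8 is 0.00610 and 0.00781 TPM. Measured against that floor, Car2 was at least 1246-fold higher than Car4 and at least 8576-fold higher than Car8, the smaller of the values of both libraries. Car1 was at least 448-fold higher than Car4 and at least 3086-fold higher than Car8. Levels below the floor were not detectable at this depth.

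By mean TPM the order of the members was Slc4a1, Car2, Car1, Slc4a2, Car13 and Car3, followed by Car4, Car5b and Car8 at 0. The lower library of one gene lay above the higher library of the next for 6 of the 8 neighbouring pairs. The other pairs join the 3 genes listed at 0, which cannot be ordered. The step between Slc4a2 and Car13 depended on the length used for Slc4a2, as described with its transcripts. The step between Car13 and Car3 rests on 35 against 15 counts in replicate 1 and 54 against 3 in replicate 2.

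Transcript tables were used to see which forms of each gene were present, over 38 annotated transcripts of the 9 genes. Slc4a1 was almost wholly 1 form. Slc4a1-201, of 4545 nt in 20 exons, starts at chr11:102365280, is coding from exon 2 onwards with 2787 coding bases, and held 99.86% and 99.96% of the gene's TPM (99.9 ± 0.0707). The other 4 annotated transcripts are short non-coding ones. Of these, Slc4a1-205, which starts 923 bases upstream of Slc4a1-201, had 0 counts in both libraries. Car2-201, of 1788 nt, held 96.07% and 96.54% of the TPM of Car2. The rest, 3.93% and 3.46% (3.70 ± 0.332), was on Car2-203, a transcript of 881 nt that keeps an intron, with 250.06 and 178 counts. Among the 1395 genes at 1 TPM or more that have an annotated intron-retaining transcript, the median share on such transcripts was 17.8% in replicate 1 and 16.0% in replicate 2. The quartiles were 4.19% to 38.8% and 4.47% to 37.7%, so the share of Car2 lay just below the lower quartile in both libraries.

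**Figure D2:**
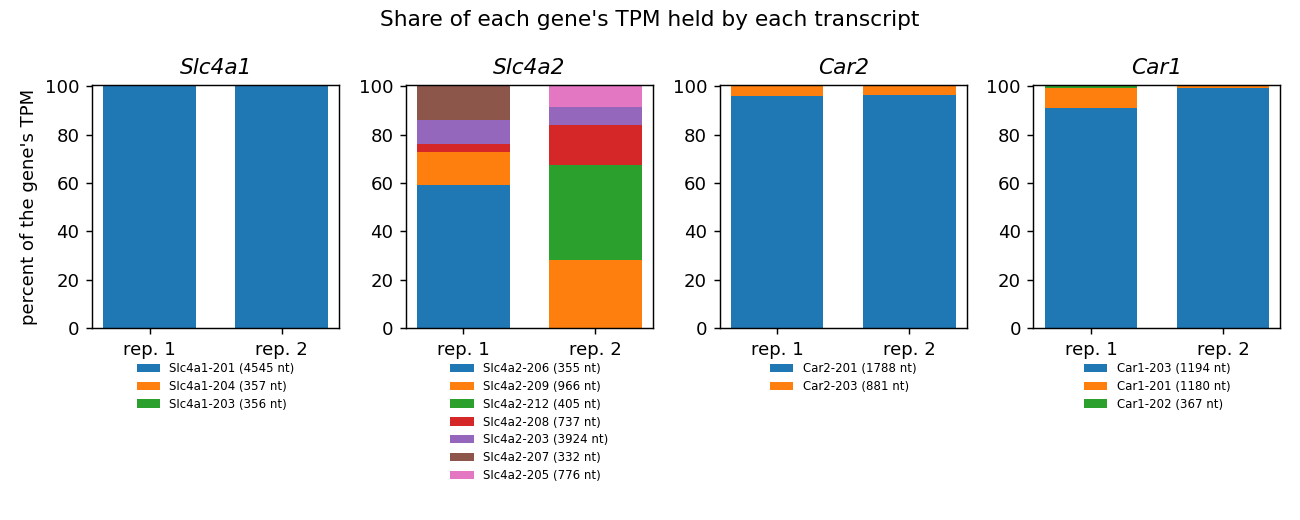
Share of each gene's TPM held by each annotated transcript, in percent, 1 bar per library (rep. 1 and rep. 2). Slc4a1, Car2 and Car1 are each carried mostly by 1 transcript in both libraries, whereas the transcripts that carry Slc4a2 differ between the libraries.

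Car1 has annotated starts far apart. In human, CA1 is known to be transcribed in erythroid cells from a promoter well upstream of the one used in colon. In the mouse annotation Car1-203 starts at chr3:14808365 with a non-coding first exon of 64 bases, and Car1-202, a short form, starts at chr3:14808368. Car1-201 starts at chr3:14778459, which is 29906 bases downstream of the start of Car1-203. Car1-201 and Car1-203 share the start codon at chr3:14778384 and their 783 coding bases, so the choice of start does not alter the encoded protein. Car1-203 held 91.04% of the TPM of Car1 in replicate 1 and 99.18% in replicate 2. Both upstream transcripts together held 91.76% and 99.18% (95.5 ± 5.25). Car1-201 held 8.24% and 0.82%, from 223 and 21.3 estimated counts. Only 51 bases of Car1-201 lie in no other transcript of the gene, and the deposited posterior SD of its count was 164 in replicate 1 and 33.4 in replicate 2. The count of the downstream start was within 2 such SDs of 0 in both libraries, which is a score and not a test. By deposited posterior means Car1-201 held 10.75% and 1.83% of the gene's TPM. The upstream form was the main one in each library.

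The forms of Slc4a2 did not repeat between the libraries. Of its 14 annotated transcripts, 7 had counts in either library. In replicate 1 Slc4a2-206, a non-coding fragment of 355 nt, held 59.2% of the gene's TPM from 18.7 counts, and the long coding form Slc4a2-203, of 3924 nt, held 9.63% from 52.7 counts. Slc4a2-207 held 14.1% and Slc4a2-209 held 13.7% there. Slc4a2-206 had 0 counts in replicate 2, where Slc4a2-212, of 405 nt, held 39.6% from 5 counts, Slc4a2-209 27.9% and Slc4a2-208 16.3%. There Slc4a2-203 held 7.51% from 13.5 counts. Because the TPM of a gene is a sum over its transcripts, short forms set most of the value for Slc4a2: the deposited effective length was 656 in replicate 1 and 773 in replicate 2. The longest coding transcript, Slc4a2-202 of 4264 nt, itself had 0 counts in both libraries. With all counts of the gene set on its length, the level was 0.174 and 0.0863 TPM (0.130 ± 0.0618). On that basis the mean of Slc4a2 stood below that of Car13. Car13 has 1 annotated transcript and gave 0.122 and 0.242 TPM (0.182 ± 0.0845) by the same calculation. The libraries differed in this order, with Slc4a2 above Car13 in replicate 1 and below it in replicate 2. For the few counts of Car3, 72.5% of TPM was on the coding Car3-201 in replicate 1, and all 3 counts of replicate 2 were on a transcript that keeps an intron, Car3-202.

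Car13, Car1, Car3 and Car2 are neighbours on chromosome 3, from 14641727 to 14900770, over 259 kb that hold 4 protein-coding genes and 2 pseudogenes, Gm5843 and Gm16399, both with 0 counts. Levels within this cluster differed widely at short range. Car3 ends 13.8 kb before the start of Car2 on the same strand. Car2 was at 64.60 and 67.01 TPM, and Car3 at 0.09 and 0.02 TPM. The upstream start of Car1 lies 55.1 kb from the start of Car3 and points away from it, since Car1 is on the − strand. Before the cluster, 1810022K09Rik had 2.37 and 1.65 TPM, E2f5, a cell cycle transcription factor, 0.04 and 0.07 TPM, and Lrrcc1, a centrosomal protein, 0.44 and 0.32 TPM. After it, Gm9733 had 0.24 and 0.04 TPM and Sirpb1a 0.07 and 0.01 TPM. Car2 and Car1 were thus the only genes of this stretch above 3 TPM in both libraries.

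**Figure D3:**
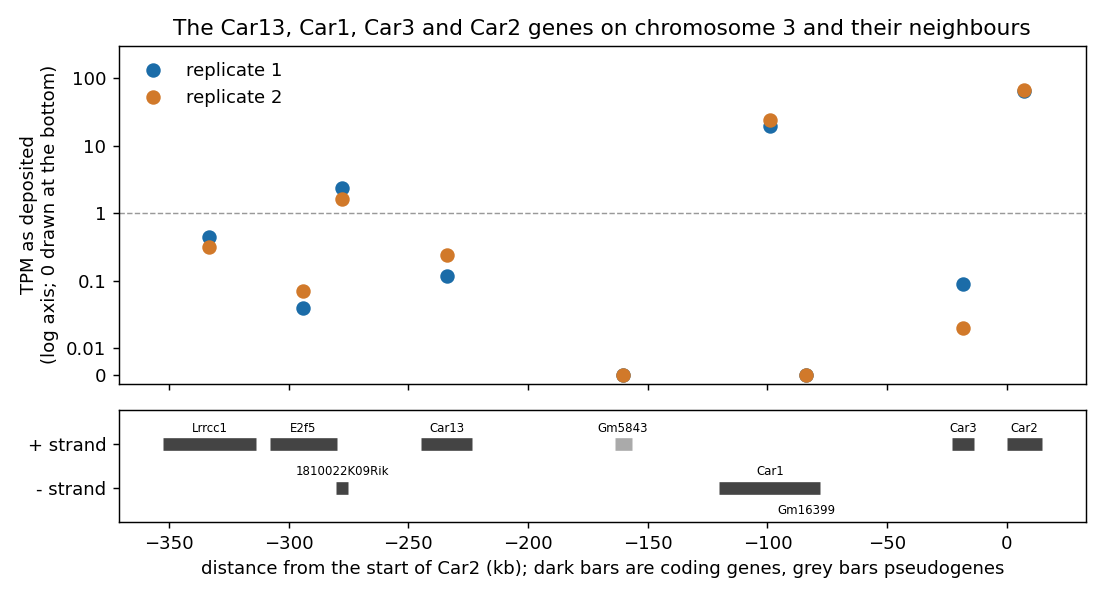
Upper panel, TPM as deposited (log axis, with 0 drawn at the bottom, dashed line at 1 TPM) of the genes around the Car cluster, 1 point per library. Lower panel, the position and strand of each gene as distance in kb from the start of Car2, with Gm16399, inside Car1, too short to be seen as a bar. Car2 and Car1 stand above 19 TPM while Car3, between them, is below 0.1 TPM.

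The other anion exchangers and carbonic anhydrases were all at or below 0.28 TPM. Over all nuclear protein-coding genes, 12.6% reached 1 TPM in both libraries and 42.1% had 0 counts in both. In lists of 8 to 11 genes, 0 at 1 TPM is close to that share. Of the 8 other SLC4 bicarbonate transporters, 0 reached 1 TPM in both libraries and 4 had 0 counts. The highest were Slc4a7, a sodium bicarbonate cotransporter, at 0.10 and 0.12 TPM, Slc4a8 at 0.05 and 0 TPM, and Slc4a11 at 0.02 and 0 TPM. Of the 11 SLC26 anion exchangers, a separate family that also carries chloride, bicarbonate and sulfate, 0 reached 1 TPM and 6 had 0 counts. Slc26a2, the sulfate transporter, was the highest at 0.25 and 0.28 TPM, followed by Slc26a1 at 0.11 and 0.10 TPM and Slc26a8 at 0 and 0.03 TPM. The 9 other carbonic anhydrase genes also had 0 at 1 TPM. Car15 stood at 0 and 0.14 TPM, Car9, the hypoxia-induced membrane enzyme, at 0.04 and 0 TPM, and Car12 at 0.01 and 0 TPM, while Car5a, Car6, Car7, Car10, Car11 and Car14 had 0 counts. On the rescaled scale 1 of 8, 2 of 11 and 0 of 9 genes of these lists reached 1, against 44.6% of nuclear protein-coding genes.

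RNA of genes listed as partners of the band 3 complex in the red cell membrane was also measured. This list, like the others, was chosen with earlier results of these data known, so its counts are a description. All 11 listed partners were at 1 TPM or more in both libraries, against 12.6% of all nuclear protein-coding genes, with a median of 20.05 TPM in replicate 1 and 19.35 TPM in replicate 2, against 0.01 and 0.02 TPM over all nuclear protein-coding genes. Among the highest were Ank1, erythroid ankyrin, at 27.8 and 31.1 TPM (29.4 ± 2.32) and Rhd, a Rhesus blood group protein, at 25 and 30.3 TPM (27.6 ± 3.73). The lowest was Add2, beta-adducin of the junctional complex, at 3.10 and 2.74 TPM (2.92 ± 0.255). Each partner was below Slc4a1: the TPM of Slc4a1 was 4.46-fold and 4.78-fold that of Ank1, and 5.32-fold and 6.30-fold that of Epb42, protein 4.2. Rhag, the Rhesus-associated glycoprotein, was exceeded 5.07-fold and 5.96-fold.

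Other transport genes of the red cell were mixed. Of 12 listed, 6 were at 1 TPM or more in both libraries and all 12 at 1 rescaled TPM or more, against 12.6% and 44.6% of nuclear protein-coding genes. Aqp1, a water channel that also passes carbon dioxide, stood at 17.7 and 19.4 TPM (18.6 ± 1.18). Atp2b4, a plasma membrane calcium pump, had 13.7 and 8.49 TPM (11.1 ± 3.67), and Slc16a1, a lactate transporter, 8.67 and 9.26 TPM (8.97 ± 0.417). Slc12a7, a potassium chloride cotransporter, was the lowest at 0.04 and 0.07 TPM. The TPM of Slc4a1 was 6.99-fold and 7.66-fold that of Aqp1, and the TPM of Car2 was 3.64-fold and 3.45-fold that of Aqp1. Among 5 measured genes of proton and bicarbonate handling outside both families, Tcirg1, a subunit of the vacuolar proton pump, was the single one at 1 TPM, with 1.23 and 1.10 TPM. Slc9a3r1, a scaffold protein, had 0.40 and 0.42 TPM, Atp6v1a, another pump subunit, 0.31 and 0.36 TPM, and Ptprz1, a receptor phosphatase with a carbonic anhydrase-like domain, 0 counts. Over all 6 lists 18 of 56 genes were at 1 TPM or more in both libraries, against the same 12.6%.

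**Figure D4:**
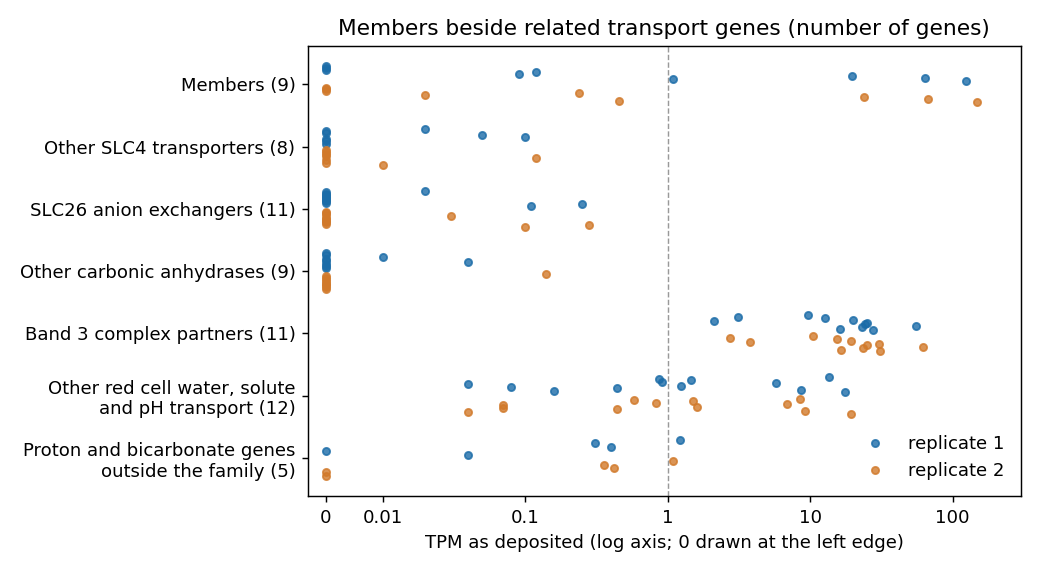
TPM as deposited (log axis, with 0 drawn at the edge) of the 9 members and of the genes of the 6 pathway lists, 1 point per gene and library. All 11 band 3 partners lie above 1 TPM, whereas the other SLC4, SLC26 and carbonic anhydrase genes lie below 0.3 TPM.

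Between the libraries, the ratio of replicate 1 over replicate 2 was taken on log2(TPM + 1) and centred on its median over the 9820 genes whose expected count averaged 20 or more. Of these, 62 genes or 0.631% were over 2-fold apart, 25 higher in replicate 1 and 37 higher in replicate 2. That split depended on the scaling: 33 and 17 with edgeR's TMM factors, 35 and 17 with DESeq2's size factors, 5 and 445 with the spike-in sum, and 18 and 45 with no centring. Of the 9 members 5 passed the count minimum and 0 of these were over 2-fold apart. Their log2 ratios were −0.21 for Slc4a1, 0.56 for Slc4a2, −0.01 for Car2, −0.24 for Car1 and −0.10 for Car13. Adding 1 to TPM shrinks the ratio of low genes. A gene well below 1 TPM in both libraries, such as Car13, cannot be called over 2-fold apart on this scale. With 0.1 added in place of 1 the ratio of Slc4a2 was 1.20, and Slc4a2 was over 2-fold apart together with 10.3% of the genes.

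On counts, taken as a share of each library's nuclear protein-coding counts, the ratio of replicate 1 over replicate 2 was 0.925 for Slc4a1 (exact 95% interval 0.915 to 0.935), 1.07 for Car2 (1.04 to 1.10) and 0.901 for Car1 (0.853 to 0.951). None of these intervals, which cover counting error only and hold for this scaling, includes 1. The direction for Car2 changed with the scaling. For the scarce genes the ratio was 2.24 for Slc4a2 (1.51 to 3.35), 0.562 for Car13 (0.357 to 0.876) and 4.34 for Car3 (1.23 to 23.4), with the same limits and from few counts. A ratio between single libraries of 1 group carries no condition.

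**Figure D5:**
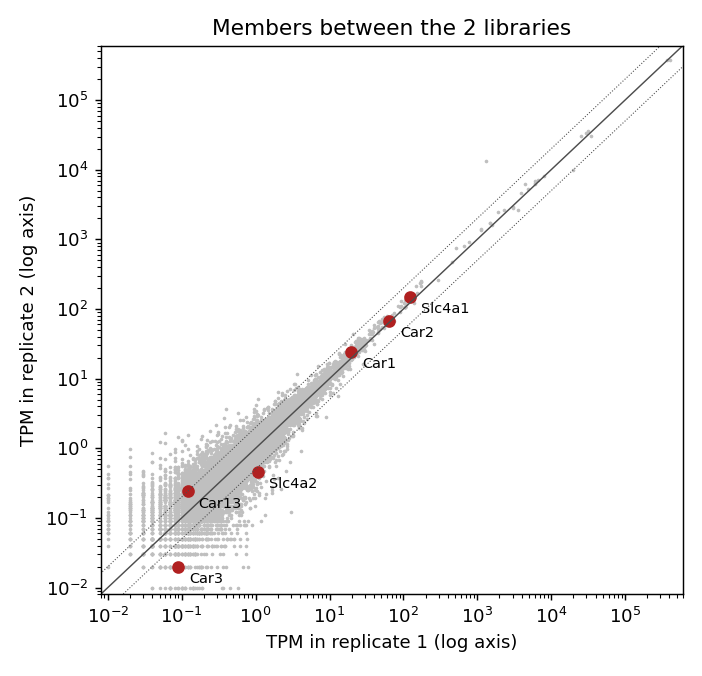
TPM as deposited of the 9820 genes whose expected count averaged 20 or more, in replicate 1 against replicate 2 (log axes; genes at 0 in either library are not drawn), with the members marked (Car3, below that minimum, included). The solid line is equality and the dotted lines are 2-fold either side. Slc4a1, Car2 and Car1 lie close to the solid line, Car13 lies on a dotted line, and Slc4a2 and Car3 lie beyond 2-fold.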

How the data were processed

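Total RNA of 2 CFU-Ery libraries was quantified by the authors per library on mm10 with GENCODE M4, per the deposited description of the files; which aligner and counting tool were used, and whether strand was, is not given in the sources used here. The deposited expected counts estimate how many reads each gene or transcript received, per the file headers. The deposited TPM and FPKM values are relative to length and to all RNA of the table, mitochondrial RNA and spike-ins included. The deposited isoform percent is a transcript's share of its gene's TPM. The deposited posterior SD of a count was read as a score. No value in the text rests on FPKM.

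Names and coordinates (1-based, GRCm38) came from GENCODE M21 by Ensembl identifier: 42462 of 43346 genes matched, out of 69691 entries in all. Entries named only by a number held 0 and 7.23e-06% of counts and were left out. All 9 genes matched, with 38 transcripts. One listed gene, Atp6v0a3, was not matched. No gene was tested between conditions. Intervals are exact (Poisson for counts, Clopper-Pearson for ratios) at 95% and cover counting error only, since the reads carry no molecular identifiers as far as the labels say. The floor is 3 counts per library. Replicate ratios used log2(TPM + 1), a mean count of at least 20 and median centring, which removed a shift of −0.05. Their calculation was tested on simulated data with counting error only. The changed genes there all lay above the levels of Slc4a2 and Car13, so that test does not cover such scarce genes. edgeR 4.0.16 and DESeq2 1.42.0 (in R 4.3.3), given expected counts rounded to whole numbers, supplied scaling factors only. The text names all members, the 3 highest and the lowest gene of each list by mean TPM, and transcripts with at least 10% of a gene's TPM, except that some of these are not reported here; other genes named, among them level neighbours, markers and neighbours on chromosome 3, were named for their place, role or overlap. The 9 genes and the lists were chosen with earlier results of these data known. Other steps ran in Python 3.11.15 with scipy 1.17.1, pandas 2.3.3, numpy 2.4.6 and, for figures, matplotlib 3.10.9.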

Additional observations from a re-analysis of the deposited data

How the results depend on the processing

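Members at the minimum in both libraries were 5 on rescaled TPM, 5 at 10 expected counts and 5 at 0.1 TPM, and 3 to 4 with either library left out; the pathway lists gave 29 on rescaled TPM and 28 at 10 expected counts. On expected counts, which do not allow for length, the log2 ratio was 2.49 for Slc4a1 to Car2 and 2.22 for Car2 to Car1, and Car2 and Car1 held 81.9% and 17.7% of the family. With either library left out the ratios were 0.94 to 1.15 and 1.47 to 1.72, and the upstream share of Car1 91.8% to 99.2%. The posterior share of Slc4a1-201 was 99.7%. Genes over 2-fold apart numbered 1014 (pseudocount 0.1, with 1 member, Slc4a2), 450 (spike-in sum), 23 (mean count of at least 100) and 134 (no filter). The median of all genes moved by 0.11 with TMM, 0.12 with DESeq2's size factors and −0.52 with the spike-in sum. The ratio of Car2 was −0.01 as reported, 0.10 and 0.11 with TMM and DESeq2's size factors, and −0.53 with the spike-in sum, so its direction was not fixed. Each of these scalings shifts all genes by the same amount, so the place of Car2 relative to the median of all genes could not change. The length of the longest coding transcript, an alternative chosen after seeing the data, put the mean of Slc4a2 below that of Car13. In replicate 1 alone Slc4a2 stayed above Car13. Posterior mean TPM gives genes with 0 counts a value above 0. The log2 ratios of Slc4a1 to Car2 and of Car2 to Car1 kept their direction under every alternative run. No paired analysis was possible because there is 1 group. Depth limits Car3, Car4, Car5b and Car8, at 15 counts or fewer per library.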
